A study of Mus musculus with 4 samples.

Results

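The genes described here encode the secreted TGF-beta ligands (Tgfb1, Tgfb2, Tgfb3), the activin A subunit (Inhba), the latent TGF-beta binding proteins (Ltbp1, Ltbp2, Ltbp3) and the TGF-beta receptors (Tgfbr1, Tgfbr2, Tgfbr3). They were chosen by name as members of 1 signalling pathway, with earlier results of these data known. All 10 were found among the 54532 genes of the deposited expression table. RNA sequencing had been run on total RNA from cultured mouse bone marrow cells labelled MSCs, obtained by digesting whole marrow of CB6F1 mice, an F1 hybrid laboratory strain. For 2 libraries the cells had received R, an agent named only by that letter, at 0.5 µM (the unit is given as "um"), and for the other 2 the vehicle DMSO. The titles of all 4 libraries carry the term aGVHD. What R stands for, how long the cells were treated and whether each replicate was its own culture or animal is not stated in the labels. The p-values thus reflect the variation among these 4 libraries alone, which could be technical in origin.

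TGF-beta is made as a precursor whose cleaved propeptide stays wrapped around the growth factor and keeps it inactive. Latent TGF-beta binding proteins attach this complex to the extracellular matrix, from which integrins, proteases and other factors release the active ligand. The ligand then assembles the type II receptor Tgfbr2 with the type I receptor kinase Tgfbr1, and this complex phosphorylates Smad transcription factors, while the coreceptor Tgfbr3 presents ligand. Activin A, a dimer of the Inhba product, uses activin receptors but activates the same Smads. In bone marrow, TGF-beta is known for its effects on stromal and osteoblast differentiation and on blood stem cell quiescence.

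Values are FPKM, a read abundance scaled to exon length and library size. The 4 libraries held 16570419 to 18140519 reads in genes whose values gave whole reads, and the members were covered by 814 to 10406 reads per library. Markers of more than 1 cell type were present in the cells labelled MSCs. Of 27 macrophage and monocyte markers, 26 reached 1 FPKM in every library, and their sum was 13247 to 17240 FPKM in R and 22655 to 25360 FPKM in vehicle. Most of that sum was Lyz2, at 8891 and 7061 FPKM in R and at 14569 and 12540 FPKM in vehicle. Over the 27 markers the ratio of means, R over vehicle, ran from 0.251 for Fcgr1 to 1.19 for Cx3cr1. Of 27 mesenchymal stromal markers, 23 reached 1 FPKM in every library, with a sum of 2562 to 2693 FPKM in R and 2188 FPKM in both vehicle libraries. Without the collagen genes Col1a1 and Col1a2 that sum was 1296 and 1464.5 FPKM in R and 1374 and 1371 FPKM in vehicle, and the groups overlapped. The stromal markers Lepr and Thy1 stayed under 1 FPKM in all libraries. Of the T and NK cell markers 8 of 12 and of the neutrophil markers 6 of 12 were at 0 throughout, among them Cd3e, Cd8a, Ly6g and Mpo. In these lists Cd4 (6.35 to 8.14 FPKM), Csf3r (10.6 to 19.7 FPKM) and Camp reached 1 FPKM in every library. So did 3 of 8 B cell markers and 1 of 8 megakaryocyte markers, Pf4, at 159 to 228 FPKM. In such bulk samples, fewer cells of a type and less RNA of a marker per cell cannot be told apart. The FPKM values of R replicate 2 summed to 287360, below the 333130 to 345709 of the remaining libraries, and this library also had the highest value of 6 of the 10 members.

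All 10 members were expressed at 7 FPKM or more in every library. In R the levels per length ran, from high to low, Ltbp3, Ltbp2, Tgfb1, Tgfb3, Tgfbr2, Tgfbr3, Tgfbr1, Ltbp1, Tgfb2 and Inhba, from a mean of 58.8 to 11.1 FPKM. In vehicle the order was Tgfb1, Tgfbr2, Ltbp3, Tgfb3, Ltbp2, Tgfbr3, Tgfbr1, Tgfb2, Ltbp1 and Inhba, from 59.9 to 7.70 FPKM. Not all neighbours in these orders were separated. In R the ranges of Ltbp2 and Tgfb1, of Tgfb1 and Tgfb3, and of each neighbouring pair from Tgfbr3 down to Inhba overlapped. In vehicle those of Ltbp3 and Tgfb3, of Tgfbr3 and Tgfbr1, and of Ltbp1 and Inhba overlapped.

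**Figure D1:**
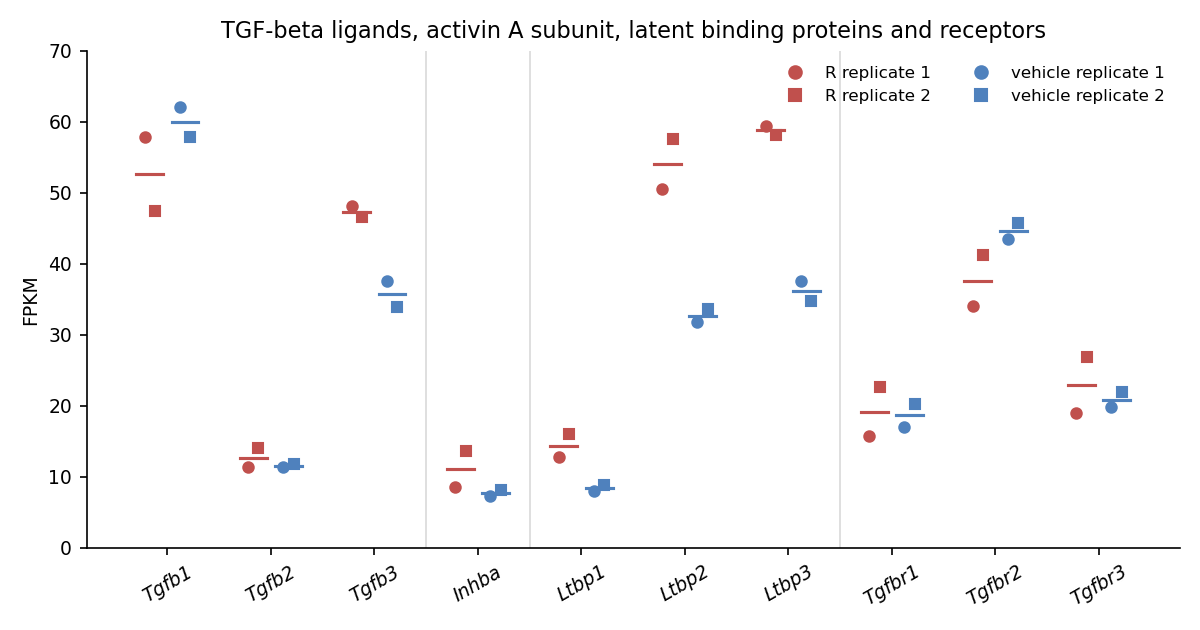
FPKM (linear axis from 0) of the 10 genes in each library, with R in red left of vehicle in blue, 1 marker shape per replicate and a bar at the group mean. The points of Ltbp1, Ltbp2, Ltbp3, Tgfb3 and Inhba in R lie above both vehicle points, and those of Tgfb1 and Tgfbr2 lie at or below them.

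R was compared with vehicle in limma on log2(FPKM + 1), with Benjamini-Hochberg adjustment over 12176 tested genes, and a gene is called where the adjusted p is under 0.05. Of all tested genes 42 were called higher in R (0.345%) and 167 lower (1.37%). None of the 10 members was called (0 higher, 0 lower). An unadjusted p under 0.05 was found for 4 members, Tgfb3 and the 3 latent binding proteins, where the share of all tested genes was 16.0%. Voom in limma, run on reads recovered from the FPKM values, called 2 members higher, Ltbp2 and Ltbp3, where it called 0.698% of all genes higher. The median log2 fold change was 0.26 over the members, 8 of them above 0, and 8.3e-05 over all tested genes. The median over the members moved with the R libraries, to 0.055 with 5 members above 0 without R replicate 2 and to 0.36 without R replicate 1. In 5 members both R libraries lay above both vehicle libraries, as in 22.7% of tested genes, and in 2 members both lay below, as in 25.2%.

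**Figure D2:**
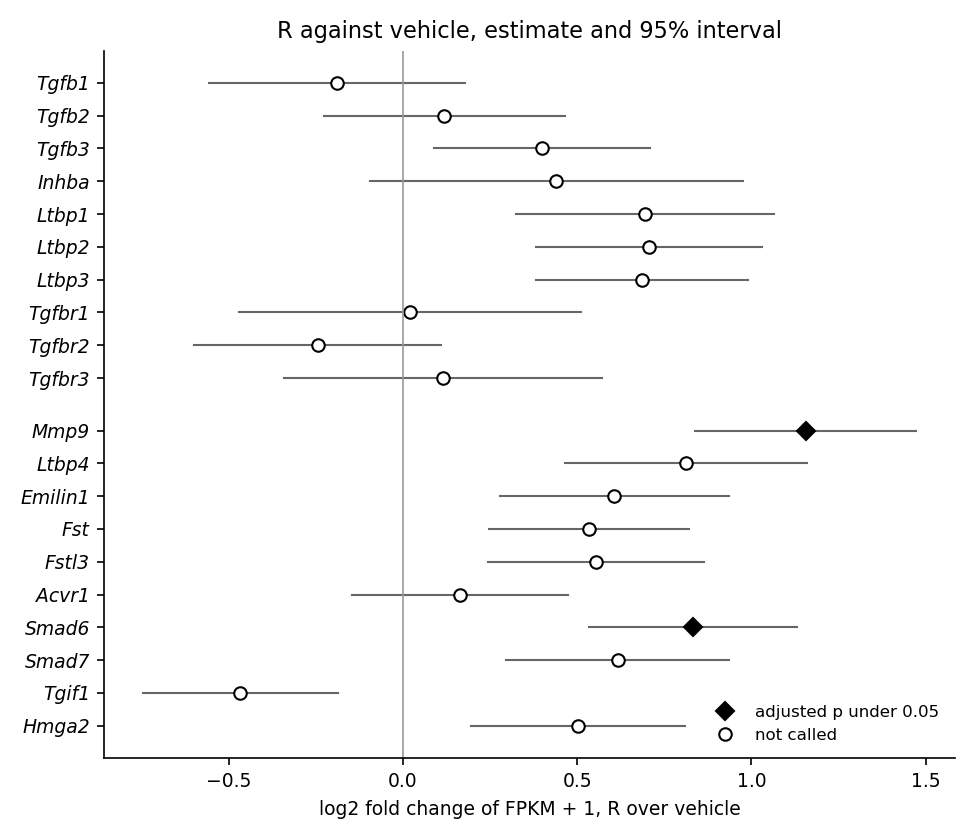
Log2 fold change of FPKM + 1, R over vehicle, with its 95% interval from limma, for the 10 members (upper block) and 10 further genes of the pathway (lower block); filled diamonds mark an adjusted p under 0.05. The intervals of Ltbp1, Ltbp2, Ltbp3 and Tgfb3 lie above 0, and the filled genes are Mmp9 and Smad6.

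The latent binding proteins had the largest estimates among the members, and the 3 of them were close to each other. Ltbp2, which unlike its relatives is known mainly as a microfibril protein that does not bind latent TGF-beta, was at 50.5 and 57.5 FPKM in R and at 31.8 and 33.6 FPKM in vehicle. The mean in R was 1.65 times that in vehicle, and the log2 fold change was 0.71 (95% interval 0.38 to 1.03, limma adjusted p = 0.0701). Ltbp3, which binds latent TGF-beta and is needed for normal bone and skull growth in mice, was at 59.5 and 58.1 FPKM in R and at 37.6 and 34.7 FPKM in vehicle. Its ratio of means was 1.63 and its log2 fold change 0.69 (95% interval 0.38 to 0.99, limma adjusted p = 0.0637). Ltbp1, which anchors latent TGF-beta to fibrillin and fibronectin fibres, was expressed at a lower level, at 12.7 and 16.0 FPKM in R and at 8.01 and 8.88 FPKM in vehicle. Its ratio of means was 1.70 and its log2 fold change 0.70 (95% interval 0.33 to 1.07, limma adjusted p = 0.0982). For each of these genes the R and vehicle libraries did not overlap. On the log2 fold change scale they stood at the 98.2, 98.0 and 98.1 percentiles of all tested genes, for Ltbp2, Ltbp3 and Ltbp1 in that order. None passed the test as set out above. A correction for a trend with gene length put Ltbp1 and Ltbp2 past it (limma adjusted p = 0.025 and adjusted p = 0.0196), where it called 1.83% of all genes higher. Both TPM scaling and quantile normalization put Ltbp3 past it, at limma adjusted p = 0.0436 and adjusted p = 0.0497, as did a minimum of 5 FPKM (adjusted p = 0.0498). These settings called 0.476%, 0.509% and 0.701% of all tested genes higher.

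Single libraries changed these calls. Without R replicate 1 all 3 were called, with limma adjusted p = 0.0208 for Ltbp2, adjusted p = 0.0296 for Ltbp3 and adjusted p = 0.0257 for Ltbp1, and 2.56% of all genes were called higher. Without R replicate 2 Ltbp2 and Ltbp3 were called (adjusted p = 0.033 and adjusted p = 0.0301) and Ltbp1 was not (adjusted p = 0.0591), and 3.60% of all genes were called higher. Without a vehicle library none was called, with adjusted p = 0.593 for Ltbp2, 0.432 for Ltbp3 and 0.489 for Ltbp1 without vehicle replicate 1, and adjusted p = 0.325, 0.563 and 0.156 without vehicle replicate 2. In these fits the lone library of a group is assumed to vary like the other group. The log2 fold changes of the 3 genes stayed between 0.54 and 0.87 in all 12 alternatives. Over 24 tested stromal markers the median log2 fold change was 0.16, with 17 above 0 and 7 below. Of them 0 were called higher and 3 lower, Ly6a, Lum and Dcn. Over 26 macrophage markers the median was -0.56, with 2 above 0 and 24 below, 0 called higher and 5 called lower. Of all tested genes 0.345% were called higher and 1.37% lower. Both R libraries lay above both vehicle libraries in 13 stromal and 1 macrophage markers (22.7% of all tested genes). They lay below in 3 stromal and 20 macrophage markers (25.2% of all). The part of a shift in cell types in the values of the binding proteins was not tested.

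**Figure D3:**
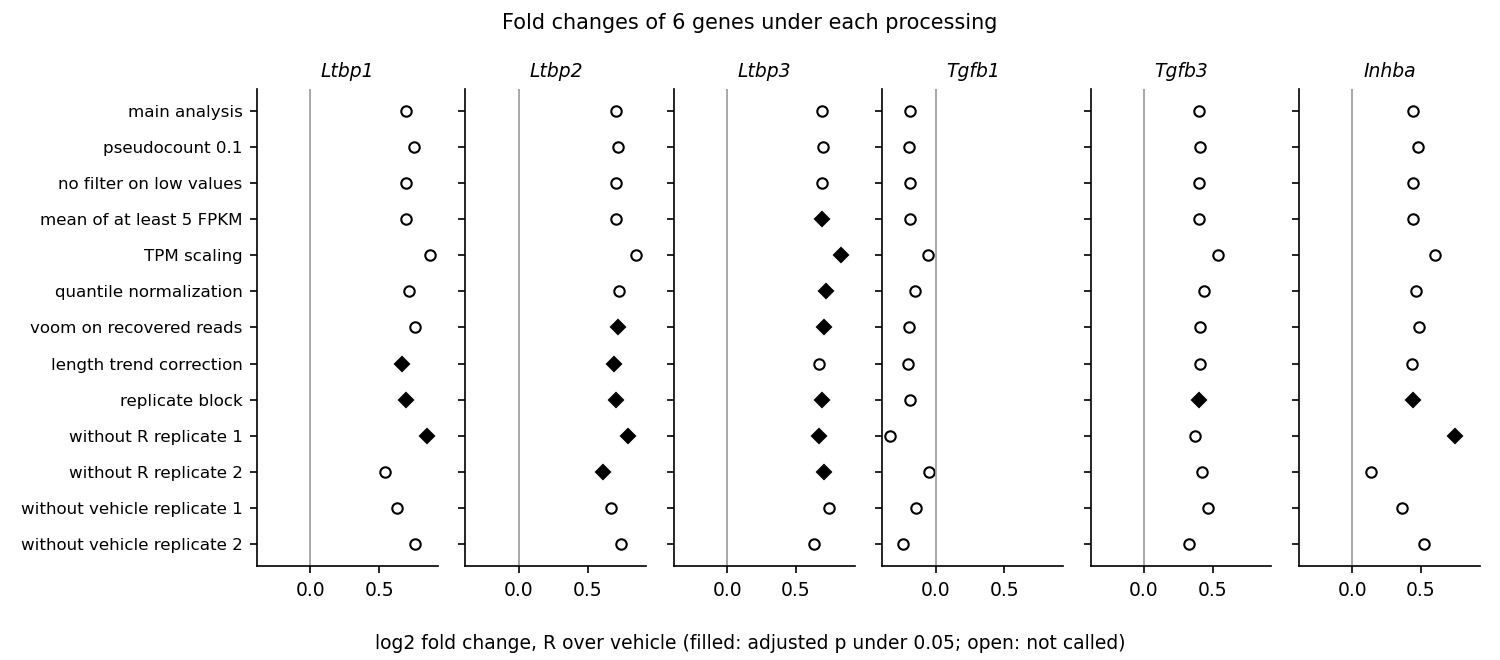
Log2 fold change, R over vehicle, of 6 genes (1 panel each) in the main analysis and under 12 alternatives (rows); filled diamonds mark an adjusted p under 0.05. Ltbp1, Ltbp2, Ltbp3, Tgfb3 and Inhba lie right of 0 and Tgfb1 left of 0 in every row, while the calls differ between rows.

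The 3 binding protein genes lie on different chromosomes in the GRCm38 annotation of GENCODE M21, Ltbp1 at 75005568 to 75392512 of chromosome 17, Ltbp2 at 84783212 to 84876532 of chromosome 12 and Ltbp3 at 5740904 to 5758532 of chromosome 19. Their promoters are shown because the 3 genes had similar fold changes. Each runs 5′ to 3′ from 250 bases before to 50 bases after the RefSeq start site (GRCm38.p6), at chr17:75005279-75005578 on the plus strand for Ltbp1, chr12:84876442-84876741 on the minus strand for Ltbp2 and chr19:5740650-5740949 on the plus strand for Ltbp3. Capitals mark CAGAC or its reverse complement GTCTG, which contains the core that Smad proteins bind.
Ltbp1: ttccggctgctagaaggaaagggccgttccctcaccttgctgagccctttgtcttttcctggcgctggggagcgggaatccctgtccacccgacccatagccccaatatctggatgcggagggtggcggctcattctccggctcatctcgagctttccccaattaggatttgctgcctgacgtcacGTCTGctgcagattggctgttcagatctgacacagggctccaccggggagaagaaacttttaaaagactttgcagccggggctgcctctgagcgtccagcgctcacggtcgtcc
Ltbp2: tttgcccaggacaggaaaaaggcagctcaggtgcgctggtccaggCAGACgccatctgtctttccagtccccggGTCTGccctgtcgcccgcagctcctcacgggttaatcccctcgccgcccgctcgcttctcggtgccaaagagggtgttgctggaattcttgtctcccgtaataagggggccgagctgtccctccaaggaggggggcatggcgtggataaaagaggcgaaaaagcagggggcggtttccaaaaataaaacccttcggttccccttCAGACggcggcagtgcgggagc
Ltbp3: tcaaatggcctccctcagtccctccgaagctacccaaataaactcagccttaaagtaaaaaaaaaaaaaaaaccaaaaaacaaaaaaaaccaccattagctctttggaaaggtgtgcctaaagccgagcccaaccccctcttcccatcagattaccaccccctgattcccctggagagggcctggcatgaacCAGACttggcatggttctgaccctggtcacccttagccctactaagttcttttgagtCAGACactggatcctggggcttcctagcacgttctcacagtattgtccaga
The Ltbp1 window held 1 match, that of Ltbp2 held 3 and that of Ltbp3 held 2. Such short matches are common, since 49.6% of 32851 mouse promoters of this length hold at least 1. Among the 8 members with a promoter in the table, 5 held a match, taking the promoter nearest to the GENCODE start, and those of Tgfb1, Inhba and Tgfbr1 held none. An AP-1 site, TGANTCA on either strand, was present in the Ltbp3 window, where its tgagtca overlaps the second capital run, and in 7.81% of all promoters. The GC box GGGCGG, or its reverse complement, occurred 2 times in the Ltbp2 window, 0 times in those of Ltbp1 and Ltbp3, and in 35.7% of all promoters. The STAT motif TTCNNNGAA occurred in 0 of these 8 promoters and in 8.3% of all. The windows also differed in base composition, with 58.7% G and C in Ltbp1, 61% in Ltbp2 and 48% in Ltbp3, against a median of 52.7% over all promoters.

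Among the ligands, Tgfb3 was higher in both R libraries and Tgfb1 was not. Tgfb3, the isoform best known from palate and tendon development, was at 48.1 and 46.5 FPKM in R and at 37.5 and 33.9 FPKM in vehicle. The libraries did not overlap, and the log2 fold change of 0.40 did not pass the test (95% interval 0.09 to 0.71, limma adjusted p = 0.211). Tgfb1, the main isoform of immune cells and platelets, was at 57.8 and 47.5 FPKM in R and at 62.0 and 57.8 FPKM in vehicle. Its highest R value and its lowest vehicle value were almost equal, and the log2 fold change was -0.19 (95% interval -0.56 to 0.18, limma adjusted p = 0.605). It was -0.050 without R replicate 2 and -0.33 without R replicate 1. Tgfb2, which acts in heart and skeletal development, was the lowest of the 3, at 11.3 and 14.0 FPKM in R and at 11.3 and 11.7 FPKM in vehicle. Its groups overlapped, with a log2 fold change of 0.12 (95% interval -0.23 to 0.47, limma adjusted p = 0.74), which was -0.024 without R replicate 2 and 0.26 without R replicate 1.

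The sum of the 3 ligands was 117 and 108 FPKM in R and 111 and 103 FPKM in vehicle, so the groups overlapped. The makeup of that sum differed. Tgfb1 contributed 49.3 and 44.0% of it in R and 55.9% in each vehicle library, and Tgfb3 contributed 41.0 and 43.1% in R and 33.8 and 32.8% in vehicle. The ratio of Tgfb3 to Tgfb1, which does not depend on how a library was scaled, was 0.832 and 0.979 in R and 0.605 and 0.586 in vehicle. Likewise the summed FPKM of Ltbp1, Ltbp2 and Ltbp3 was 1.05 and 1.22 times the ligand sum in R and 0.698 and 0.746 times in vehicle. That sum includes Ltbp2, described above as not binding latent TGF-beta. Ltbp2 made up 50.5 of 123 and 57.5 of 132 FPKM in R, and 31.8 of 77.4 and 33.6 of 77.2 FPKM in vehicle. These ratios were formed after the values were seen and were not tested. They are ratios of transcripts and say nothing of the proteins. Macrophages are known to express Tgfb1. Of 26 tested macrophage markers 24 were below 0 on the log2 fold change scale, where 6087 of all 12176 tested genes were. Of these markers 5 were called lower, against 1.37% of all tested genes. The part of macrophages in the ligand makeup was not tested.

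Inhba, whose product forms activin A, was the lowest member in both groups. It was at 8.52 and 13.6 FPKM in R and at 7.22 and 8.17 FPKM in vehicle. The gap between the R libraries was wider than that between the lower of them and vehicle, and the log2 fold change was 0.44 (95% interval -0.10 to 0.98, limma adjusted p = 0.397). The value rested on R replicate 2: it was 0.13 without R replicate 2 (adjusted p = 0.514) and 0.75 without R replicate 1 (adjusted p = 0.0341).

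None of the receptors passed the test. Tgfbr2, the type II receptor that binds the ligand, was at 34.0 and 41.3 FPKM in R and at 43.4 and 45.7 FPKM in vehicle. Both R libraries lay below both vehicle libraries, with a log2 fold change of -0.24 that did not pass the test (95% interval -0.60 to 0.11, limma adjusted p = 0.479). Tgfbr1, the type I receptor kinase, was at 15.7 and 22.6 FPKM in R and at 17.02 and 20.3 FPKM in vehicle. Its vehicle values lay within the range of the R values, with a log2 fold change of 0.02 (95% interval -0.47 to 0.51, limma adjusted p = 0.974). Tgfbr3, the coreceptor betaglycan, was at 19.0 and 26.9 FPKM in R and at 19.7 and 21.9 FPKM in vehicle. It overlapped in the same way, with a log2 fold change of 0.12 (95% interval -0.34 to 0.57, limma adjusted p = 0.817). All 3 receptors were higher in R replicate 2 than in R replicate 1. Without R replicate 2 the log2 fold changes of Tgfbr2, Tgfbr1 and Tgfbr3 were -0.38, -0.23 and -0.12. Without R replicate 1 they were -0.11, 0.27 and 0.36, and without vehicle replicate 1 that of Tgfbr1 was -0.10. The intervals leave room for changes of either sign in each receptor.

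In the GRCm38 annotation Tgfb1 (ENSMUSG00000002603) spans 25687002 to 25705077 of chromosome 7, Tgfb2 (ENSMUSG00000039239) 186622792 to 186705989 of chromosome 1 and Tgfb3 (ENSMUSG00000021253) 86056745 to 86079041 of chromosome 12. Inhba (ENSMUSG00000041324) lies at 16011851 to 16031621 of chromosome 13. Tgfbr1 (ENSMUSG00000007613) lies at 47353222 to 47414931 of chromosome 4, Tgfbr2 (ENSMUSG00000032440) at 116084293 to 116175360 of chromosome 9 and Tgfbr3 (ENSMUSG00000029287) at 107106570 to 107289629 of chromosome 5. The binding proteins carry the identifiers ENSMUSG00000001870 (Ltbp1), ENSMUSG00000002020 (Ltbp2) and ENSMUSG00000024940 (Ltbp3). Values cover the annotated exons of each gene as a whole. Some of these exons overlap a gene on the other strand, and whether strand was used in counting is not given in the sources used here. The largest such overlap was 9.34% of the exon bases of Ltbp2, with the antisense gene D030025P21Rik at 0.349 to 0.768 FPKM.

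The other genes of the pathway were read from 4 lists, and 2 of these genes were called higher. The 18 tested latency and activation genes had a median log2 fold change of 0.22, with 14 above 0 and 4 below. Of them 1 was called higher and 0 lower, where the shares of all tested genes were 0.345% and 1.37%. That gene was Mmp9, a gelatinase that can cleave latent TGF-beta, at 9.11 and 9.51 FPKM in R and at 3.33 and 3.94 FPKM in vehicle (log2 fold change 1.16, SE 0.13, limma adjusted p = 0.0155). It was called in 11 of 12 alternatives, the exception being the analysis without a filter on low values (adjusted p = 0.126). Mmp9 is also made by osteoclasts and macrophages. The 7 osteoclast markers other than Mmp9 summed to 55.6 and 43.5 FPKM in R and to 45.96 and 44.3 FPKM in vehicle, so the groups overlapped, and Calcr was at 0. Most of that sum was Ctsk, at 49.1 and 38.0 FPKM in R and at 37.5 and 36.0 FPKM in vehicle. Atp6v0d2 was at 5.04 and 4.34 FPKM in R and at 7.10 and 7.22 FPKM in vehicle. Which cells the Mmp9 transcripts came from was not tested. Ltbp4, the remaining member of the latent binding protein family, was expressed at a low level, at 2.34 and 2.51 FPKM in R and at 0.965 and 0.931 FPKM in vehicle. Its mean was 2.42 FPKM in R and 0.948 FPKM in vehicle. It thus met the minimum mean of 1 FPKM only through the R libraries. Both R libraries lay above both vehicle libraries, as in 22.7% of tested genes. Its log2 fold change of 0.81 was not called (SE 0.14, limma adjusted p = 0.0569). Voom, run with the same filter, called it (adjusted p = 0.0118), where it called 0.698% of all genes higher. Emilin1, a matrix protein that restrains TGF-beta maturation, was at 88.3 and 78.2 FPKM in R and at 54.8 and 53.7 FPKM in vehicle and did not pass (limma adjusted p = 0.102).

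The 25 tested coreceptor and Smad signalling genes had a median log2 fold change of 0.05, with 18 above 0 and 7 below. Of them 1 was called higher and 0 lower, where the shares of all tested genes were 0.345% and 1.37%. Smad6, an inhibitory Smad that acts mainly on BMP signalling, was at 22.7 and 20.4 FPKM in R and at 11.8 and 11.5 FPKM in vehicle (log2 fold change 0.83, SE 0.12, limma adjusted p = 0.0388). Its call was lost without vehicle replicate 1 or 2 (adjusted p = 0.135 and adjusted p = 0.122) and without a filter on low values (adjusted p = 0.147). Smad7, the inhibitory Smad induced by TGF-beta, was at 9.28 and 10.002 FPKM in R and at 6.42 and 5.49 FPKM in vehicle. Both R libraries lay above both vehicle libraries, as in 22.7% of tested genes. It was not called (log2 fold change 0.62, limma adjusted p = 0.0941). Tgif1, a repressor of Smad-driven transcription, was at 8.05 and 7.87 FPKM in R and at 11.2 and 11.5 FPKM in vehicle and was not called (log2 fold change -0.47, limma adjusted p = 0.125).

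Of 17 genes of the activin and inhibin axis 9 were tested and 0 were called by limma or by voom. The median log2 fold change of the 9 genes was 0.16. An unadjusted limma p under 0.05 was found for 2 of them, where the share of all tested genes was 16.0%. Fst, which encodes the activin-binding protein follistatin, was at 31.3 and 32.5 FPKM in R and at 21.95 and 21.5 FPKM in vehicle (log2 fold change 0.53, limma adjusted p = 0.0998). Its relative Fstl3 was at 4.56 and 4.57 FPKM in R and at 2.64 and 2.94 FPKM in vehicle (log2 fold change 0.55, limma adjusted p = 0.111). Both were higher in each R library than in either vehicle library without passing the test. Of the 9 tested genes 4 had both R libraries above both vehicle libraries and 0 had both below. The shares of all tested genes were 22.7% and 25.2%. Acvr1, a type I receptor of the family, was at 12.3 and 14.1 FPKM in R and at 11.4 and 12.0 FPKM in vehicle (log2 fold change 0.16, limma adjusted p = 0.594).

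Of 32 tested genes commonly used as TGF-beta targets, 0 were called by limma and 1 by voom, the member Ltbp2. An unadjusted limma p under 0.05 was found for 12 of the 32, where the share of all tested genes was 16.0%. The median log2 fold change of the 32 genes was 0.11, with 18 above 0 and 14 below. In 15 of them both R libraries lay above both vehicle libraries and in 9 both lay below, where the shares over all tested genes were 22.7% and 25.2%. The smallest p belonged to Ltbp2 and Smad7, given above, and to Hmga2, a chromatin protein, at 7.72 and 8.72 FPKM in R and at 5.68 and 5.33 FPKM in vehicle (log2 fold change 0.50, limma adjusted p = 0.131). Ccn2, a widely used target picked here with its values in view and listed under its older symbol Ctgf, was at 125 and 131 FPKM in R and at 152 and 131 FPKM in vehicle. Its log2 fold change was -0.14 (limma adjusted p = 0.7).

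**Figure D4:**
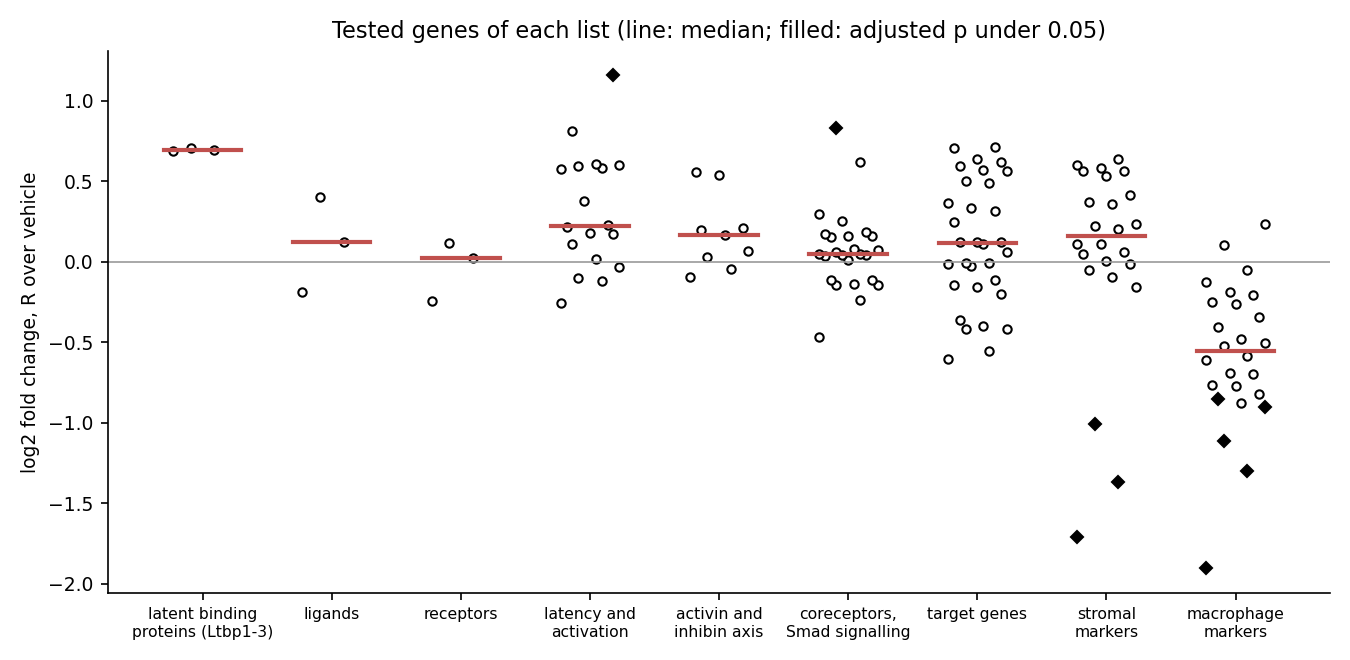
Log2 fold change, R over vehicle, of every tested gene (points) of 9 lists, with the list median as a red line and filled diamonds for an adjusted p under 0.05. The 3 latent binding proteins lie close together near 0.7, the target genes spread on both sides of 0 with a median of 0.11, and the macrophage markers have a median of -0.56.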

How the data were processed

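Per the file headers, the authors deposited 1 FPKM value per gene and library; per the submitters' processing notes, edgeR 3.18.1 and the builds GRCm38 and mm10 were used, in roles not stated. The sources used here do not name the aligner, counting tool, annotation or filters. Multiplying each FPKM by the summed length of a gene's exons (GENCODE M21) returned whole reads (tolerance 0.02) for 96.3 to 96.4% of values above 0, though not for Ltbp1 and Ltbp3, whose read numbers are approximate. Symbols came from GENCODE M21, matching 54495 identifiers and leaving 37 unmatched. Genes averaging 1 FPKM or more were fitted in limma 3.58.1 under R 4.3.3 on log2(FPKM + 1), with a variance trend and no further terms; fold changes on this scale understate those of low genes. Voom used trimmed-mean (TMM) library sizes computed from the recovered reads. The scripts were tested on simulated data. The members and lists were chosen with earlier results of these data known. Named were all members, called genes of 4 pathway lists and the 3 smallest p of each list. Alternatives changed the pseudocount (0.1), filter, scaling, test, length trend, replicate term or libraries.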

Additional observations from a re-analysis of the deposited data

How the results depend on the processing

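Tgfb1, Tgfb3, Tgfbr2, Inhba and the 3 latent binding proteins kept their direction in all 12 alternatives run, while without R replicate 2 the log2 fold changes of Tgfb2, Tgfbr1 and Tgfbr3 were -0.024, -0.23 and -0.12 (0.26, 0.27 and 0.36 without R replicate 1), and that of Tgfbr1 was -0.10 without vehicle replicate 1. Of the members 1 was called higher with a minimum of 5 FPKM, 1 on the TPM scale, 1 after quantile normalization, 2 with voom, 2 with the length trend correction and 5 with the replicate block (the 3 binding proteins, Tgfb3 and Inhba, at limma adjusted p from 3.2e-05 to 0.0497), and 0 to 4 when 1 library was left out; 0 were called lower in any of these. Of all genes, voom called 85 higher and 241 lower, the length trend correction 223 and 349, and the replicate block 891 and 1009. With all genes above 0 in some library, limma called 0 higher and 0 lower of 24958, with 2767 at an unadjusted p under 0.05. Leaving out 1 library gave 96 to 438 higher and 193 to 665 lower. In detail, dropping R replicate 1 gave 312 higher and 665 lower, dropping R replicate 2 gave 438 and 410, dropping vehicle replicate 1 gave 96 and 193, and dropping vehicle replicate 2 gave 150 and 259. Of the calls, 20.1% were higher on the deposited scale, 31.9% on the TPM scale, where the median of all genes moved to 0.13, and 39% with the length trend correction. The cause of these differences was not tested. The replicate numbers are shared by the groups, and the differences between replicates 1 and 2 correlated between R and vehicle at 0.353 across genes, but nothing in the labels pairs the samples, and with 2 pairs the block leaves 1 residual degree of freedom. The planned edgeR test on recovered reads was not run, and voom was the test of those reads. The marker sums without single genes were added after seeing the data.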
